A study of Homo sapiens with 5 samples.

Results

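The genes described here encode the core RNA polymerase I machinery and were chosen by name, since PHF8 is known to promote the transcription of ribosomal RNA. They are 10 of the 20163 protein-coding genes and of the 64449 genes of all types in the annotation used, and all 10 symbols were found in it. POLR1A, POLR1B, POLR1C, POLR1D and POLR1E encode subunits of the polymerase, and UBTF, RRN3, TAF1A, TAF1B and TAF1C encode its initiation factors. PHF8 binding was measured by chromatin immunoprecipitation followed by sequencing (ChIP-seq) in SKMEL-147 cells, a human melanoma line kept in culture. There are 5 samples: 3 immunoprecipitations with an anti-PHF8 antibody, called replicates A, B1 and B2, and 2 input chromatin libraries, A and B, that received no antibody. Its design text speaks of a PHF8 loss-of-function model made with sgRNA, but the labels of these samples name no sgRNA, so every sample is taken as the same line in a single condition. The names of the 3 peak lists carry the letters scr, which the labels do not explain, and what they say of the cells is not known here. The labels do not say whether the replicates came from separate cultures, so the spread between them may be technical.

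RNA polymerase I transcribes only the ribosomal DNA repeats, whose long transcript is cut into the large ribosomal RNAs. Upstream binding factor (UBTF) coats the repeats, selectivity factor 1 (SL1, built from TBP and TAF1 proteins) marks the promoter, and RRN3 links the polymerase to SL1. PHF8 is a Jumonji C histone demethylase whose plant homeodomain finger binds trimethylated lysine at the starts of active genes. The question here is whether PHF8 also sits at the RNA polymerase II promoters of the genes that encode this machinery.

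Each replicate has its own list of peaks, with 21506, 20882 and 20120 in A, B1 and B2. Fold enrichment, the ratio of ChIP to local background at a peak's summit, had a median of 18.9 in A and of 11.8 in both B1 and B2, so values are compared between genes within a replicate. The labels group B1 with B2 by letter and set A apart. Input B carries the same letter, so B1 and B2 may share it as their control. The SDs over the replicates do not allow for this. To put the replicates on a common footing, each gene's strongest promoter peak was ranked by fold enrichment among the protein-coding genes bound in that replicate (12583 in A, 12349 in B1, 12268 in B2), and the rank is given as a percentile. The depth of the libraries is unknown, but fragment numbers at each summit could be recovered, and the median summit carried 54, 39 and 40 fragments in A, B1 and B2. The weakest called summits carried 8, 8 and 10 fragments, and weaker binding may have gone uncalled.

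The starts of these genes differ in sequence, which the following promoters show. They were chosen to span the range, with GC content taken within 250 bp on either side of the canonical start rather than over the printed stretch. POLR1A has the lowest GC content and none of the motifs searched, and POLR1C has 5 matches (as many as POLR1E, the most of the 10). UBTF has the highest GC content and the weakest mean peak rank, and RRN3, TAF1B and TAF1C carry ETS motifs close to the start. Each runs 5′ to 3′ on the gene's own strand in build GRCh37 (hg19), from 220 bases before the canonical start through the 30 bases that begin with it. The coordinates are chr2:86332980-86333229 (minus strand) for POLR1A, chr6:43484607-43484856 (plus strand) for POLR1C, chr17:42297014-42297263 (minus strand) for UBTF, chr16:15188100-15188349 (minus strand) for RRN3, chr2:9983383-9983632 (plus strand) for TAF1B and chr16:84220634-84220883 (minus strand) for TAF1C. Capitals mark matches on either strand to the motifs named below.
POLR1A: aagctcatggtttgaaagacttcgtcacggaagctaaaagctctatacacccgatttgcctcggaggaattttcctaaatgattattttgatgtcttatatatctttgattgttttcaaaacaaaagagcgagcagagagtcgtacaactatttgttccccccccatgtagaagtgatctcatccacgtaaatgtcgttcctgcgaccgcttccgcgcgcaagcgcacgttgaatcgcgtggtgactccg
POLR1C: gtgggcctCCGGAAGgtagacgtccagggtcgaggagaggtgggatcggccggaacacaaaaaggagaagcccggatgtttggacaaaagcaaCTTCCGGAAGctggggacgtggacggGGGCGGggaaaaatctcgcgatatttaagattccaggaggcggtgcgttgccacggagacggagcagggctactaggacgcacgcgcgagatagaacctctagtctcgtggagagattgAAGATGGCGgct
UBTF: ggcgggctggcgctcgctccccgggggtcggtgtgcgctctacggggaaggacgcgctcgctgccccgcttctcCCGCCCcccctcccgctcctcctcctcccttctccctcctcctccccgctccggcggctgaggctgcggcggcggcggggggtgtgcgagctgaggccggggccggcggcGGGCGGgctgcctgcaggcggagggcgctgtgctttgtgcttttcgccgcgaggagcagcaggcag
RRN3: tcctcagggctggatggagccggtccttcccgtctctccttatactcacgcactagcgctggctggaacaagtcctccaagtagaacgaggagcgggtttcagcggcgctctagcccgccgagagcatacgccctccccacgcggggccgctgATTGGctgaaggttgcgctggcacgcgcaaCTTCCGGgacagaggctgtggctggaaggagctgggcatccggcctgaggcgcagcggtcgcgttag
TAF1B: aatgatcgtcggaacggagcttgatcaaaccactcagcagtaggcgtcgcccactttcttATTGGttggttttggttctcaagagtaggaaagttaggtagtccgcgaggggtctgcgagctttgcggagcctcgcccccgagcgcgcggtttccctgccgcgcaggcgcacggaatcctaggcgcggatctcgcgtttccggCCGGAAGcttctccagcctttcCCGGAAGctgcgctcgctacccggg
TAF1C: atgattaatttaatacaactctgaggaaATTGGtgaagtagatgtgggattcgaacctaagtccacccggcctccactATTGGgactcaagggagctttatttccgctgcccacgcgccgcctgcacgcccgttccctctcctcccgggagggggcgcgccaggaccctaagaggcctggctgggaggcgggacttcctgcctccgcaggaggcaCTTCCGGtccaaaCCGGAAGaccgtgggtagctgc

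The motifs were searched on both strands from 250 bases before to 50 bases after the canonical start of 19881 protein-coding genes. The ETS motif CCGGAAG, recognised by ETS-family activators such as GABPA, was present in 7 of the 10 genes (POLR1B, POLR1C, POLR1E, RRN3, TAF1A, TAF1B and TAF1C). It was present in 14.1% of all these promoters and in 20.9% of those bound by PHF8. Within the printed stretch it began at −17 and 6 in TAF1B, at −5 and 9 in TAF1C and at −37 in RRN3, counted from the start with no position 0. Its POLR1C matches began at −212, −127 and −124, the latter pair overlapping as the palindrome of the motif. The SP motif GGGCGG occurred in 5 genes (POLR1B, POLR1C, POLR1D, POLR1E and UBTF), against 61.4% of all promoters and 75.8% of bound promoters. The CCAAT box, the letters bound by NF-Y, occurred in 5 genes (POLR1E, RRN3, TAF1A, TAF1B and TAF1C), against 36.0% and 36.8%. The YY1 motif AAGATGGCG occurred only in POLR1C, against 2.85% and 4.51%, and lies at the end of the printed stretch from position 19. The NRF1 motif GCGCATGCG, the E-box CACGTG, the cAMP response element TGACGTCA and the TBP element TATAAA were not found in these windows of the 10 genes, and occurred in 2.71%, 8.76%, 2.68% and 9.62% of all promoters.

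PHF8 peaks were called at the promoters of all 10 genes in all 3 replicates. A promoter was taken as 1000 bp on either side of any annotated transcript start, and by this rule 60.2% of protein-coding genes were bound in all replicates. Around the canonical start, 9 of the 10 genes had CpG-island-like sequence, beside 10934 of the 12139 protein-coding genes bound in all replicates. Of all 13464 protein-coding genes with such a start, 81.2% were bound. The exception among the 10 genes is POLR1A, which was bound as well. It had a GC content of 48.9% and a CpG ratio (observed over expected) of 1.05 within 250 bp of its start. GC content over the 10 starts had a median of 63.8% and reached 79.4% at UBTF, beside a median of 67.7% over all bound genes. The CpG ratio ran from 0.80 at POLR1D to 1.05, with a median of 0.919 beside 0.849 over bound genes.

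By strength, most of the genes ranked at or above the middle of the bound genes. The highest percentile of any of them in any replicate was 80.3 (POLR1A in B1, for a peak over the start of a neighbouring gene). All 10 genes exceeded a fold enrichment of 10 in every replicate. So did 10001 of the 12139 protein-coding genes bound in all replicates (49.6% of all protein-coding genes, bound or not). Above 20 there were 7 genes (POLR1A, POLR1B, POLR1D, POLR1E, RRN3, TAF1B and TAF1C), beside 4789 of these 12139 bound genes (23.8% of all protein-coding genes). POLR1B and TAF1C passed narrowly in B2, at 20.04 and 20.2. POLR1A counts here by its peak over the start of the neighbour PTCD3, since its peak inside the gene was below 20 in B1, at 19.4. The median over the 10 genes was 33.7, 23.4 and 20.6 in A, B1 and B2, beside 32.6, 19.1 and 18.2 over all bound protein-coding genes. In percentiles, the median gene stood at 52.6, 67.0 and 60.2 in A, B1 and B2, where 50 is the middle of the bound genes. Taking each gene's mean over replicates, the median was 61.8 ± 7.21 (SD of the median over 3 replicates), and 8 of the 10 means lay above 50. The number of genes above the middle was 5 in A and 8 in each of B1 and B2. With A left out, the median was 63.9.

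**Figure D1:**
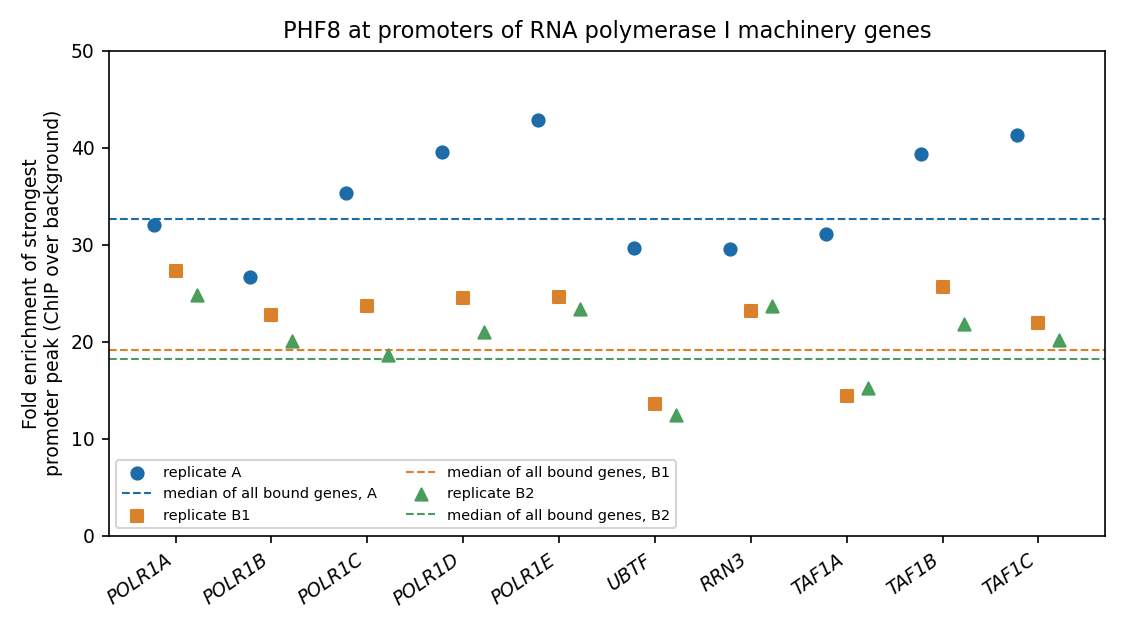
Fold enrichment (ChIP over local background, linear axis from 0) of the strongest PHF8 promoter peak of each gene in replicates A (circles), B1 (squares) and B2 (triangles), with dashed lines at the median of all bound protein-coding genes in each replicate. UBTF and TAF1A fall below the dashed line in every replicate, UBTF at 29.7, 13.5 and 12.4, while POLR1E, at 42.9, 24.6 and 23.4, lies above it in every replicate.

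The catalytic centre is formed by the 2 largest subunits, POLR1A and POLR1B. POLR1A (ENSG00000068654, chr2:86247339-86333278, minus strand) had a fold enrichment of 32.1, 27.3 and 24.8 in A, B1 and B2, at a peak over the start of the neighbour PTCD3. These values rest on 117, 90 and 85 fragments at the summit. Its rank differed between the replicates, at the 48.8th percentile in A but the 80.3rd in B1 and the 75.9th in B2, and its mean of 68.3 ± 17.1 (SD, n = 3) had the widest spread of the 10 genes. POLR1B (ENSG00000125630, chr2:113299492-113337395, plus strand) had values of 26.7, 22.8 and 20.04, the lowest of the 10 genes in A. Its percentile was 35.4, 64.3 and 58.1 in A, B1 and B2, a mean of 52.6 ± 15.3. Both genes thus ranked lower in A than in B1 and B2.

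The peaks of the 2 genes differed in shape. POLR1B had a single peak of 1243 bp in A, 1222 bp in B1 and 1389 bp in B2, with its summit 103, 135 and 138 bp downstream of the canonical start in the coding part of an exon. POLR1A had 2 separate peaks in each replicate. The stronger was upstream, with its summit at −450, −474 and −473 in A, B1 and B2. The weaker was in the coding part of an exon at 144, 150 and 147 bp, with a fold enrichment of 21.6, 19.4 and 20.8. The summits were 594, 624 and 620 bp apart. The upstream peak lies over the start of PTCD3, which encodes a mitochondrial ribosome protein and is transcribed in the opposite direction.

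POLR1C and POLR1D form the assembly platform that RNA polymerase I shares with RNA polymerase III. POLR1C (ENSG00000171453, chr6:43477440-43530156, plus strand) had a fold enrichment of 35.3, 23.6 and 18.7 in A, B1 and B2 on 129, 83 and 84 fragments, and a mean percentile of 58.8 ± 8.29. Its main summit lay in an intron 124, 91 and 136 bp downstream of the canonical start, and in B1 alone a separate peak of 21.1 was called at −285. A far upstream start of the gene had a weaker peak, with a fold enrichment of 10.9, 4.43 and 5.59 in A, B1 and B2 on 27, 12 and 16 fragments. That start faces LRRC73, transcribed in the opposite direction. Were the far start the only one considered, the mean percentile of POLR1C would be 4.41.

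POLR1D (ENSG00000186184, chr13:28194879-28318374, plus strand) had a fold enrichment of 39.6, 24.6 and 21.0 in A, B1 and B2 on 118, 71 and 63 fragments. Its percentile was 67.0, 71.3 and 62.0, a mean of 66.8 ± 4.62, so its rank varied little. The main summit lay 129, 108 and 87 bp downstream of the canonical start. A further peak at −1463, −1463 and −1468, over the start of LNX2 on the opposite strand, had a fold enrichment of 31.9, 14.4 and 13.4. Between these, a separate peak was called at −1006 in A and −1002 in B2, with a fold enrichment of 24.2 and 9.20. Its summit lay at −33 and −29 from another annotated start of POLR1D. In B1 the main peak, of 1477 bp, spanned this position. The peaks together covered 2078 bp in A, 2036 bp in B1 and 1897 bp in B2, a longer stretch than in 95.2%, 96.0% and 95.4% of bound protein-coding genes.

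POLR1E encodes a subunit of the heterodimer that is particular to RNA polymerase I and acts in initiation. It (ENSG00000137054, chr9:37485945-37503694, plus strand) had the highest mean rank of the 10 genes. Fold enrichment was 42.9, 24.6 and 23.4 in A, B1 and B2, from 122 (95% exact Poisson interval 101 to 146), 72 (56.3 to 90.7) and 71 (55.5 to 89.6) fragments. The percentile was 74.1, 71.5 and 70.9, a mean of 72.2 ± 1.69, the smallest spread of the 10. The summit lay in the coding part of an exon 143, 157 and 151 bp downstream of the canonical start. A separate weaker peak upstream at −307, −283 and −291 had a fold enrichment of 13.6, 13.1 and 9.58. Here no other gene is annotated on the opposite strand near the upstream peak, in contrast to POLR1A.

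POLR1A and POLR1E had summits within 500 bp on both sides of the canonical start in all replicates, beside 1527 of 12115 bound genes. For these 2 genes, the 30 bases around the summit in replicate A show what lies under the peaks. They are given on the gene's own strand, from chr9:37486074-37486103 for POLR1E, chr2:86333445-86333474 for the POLR1A peak over PTCD3 and chr2:86332851-86332880 for the POLR1A peak inside the gene, in build GRCh37 and wholly in lower case because no motif is marked.
POLR1E summit: gtggcagtattgtggggcgcccgacgggag
POLR1A upstream summit: ctgcagctgcgtgcctgttcacacaaaccc
POLR1A downstream summit: tgccctggcggcggctgcagggcatttcct

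UBTF had the lowest mean percentile and the broadest coverage of the 10 genes, although POLR1B and RRN3 ranked below it in A. The gene (ENSG00000108312, chr17:42282401-42298994, minus strand) encodes upstream binding factor, the high mobility group box protein that keeps ribosomal DNA open. Fold enrichment was 29.7, 13.5 and 12.4 in A, B1 and B2 on 76, 40 and 38 fragments. The percentile was 43.1, 27.7 and 24.8, a mean of 31.9 ± 9.86, below the middle in every replicate. UBTF had 5 promoter peaks in A, 3 in B1 and 6 in B2, which covered 4010, 3530 and 3284 bp. The median bound gene was covered over 1020 bp in A, 964 bp in B1 and 929 bp in B2. UBTF stood at a percentile of 99.93, 99.91 and 99.87 for covered length. This length adds up the peaks near all annotated starts of a gene, of which UBTF has 16. Its strongest summit lay in an intron 764, 734 and 774 bp downstream of the canonical start and close to another annotated start of the gene. Among the starts near these peaks are those of lncRNA genes, ENSG00000260793 at −1694 on the opposite strand and ENSG00000288877 at −2482 on the same strand.

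**Figure D2:**
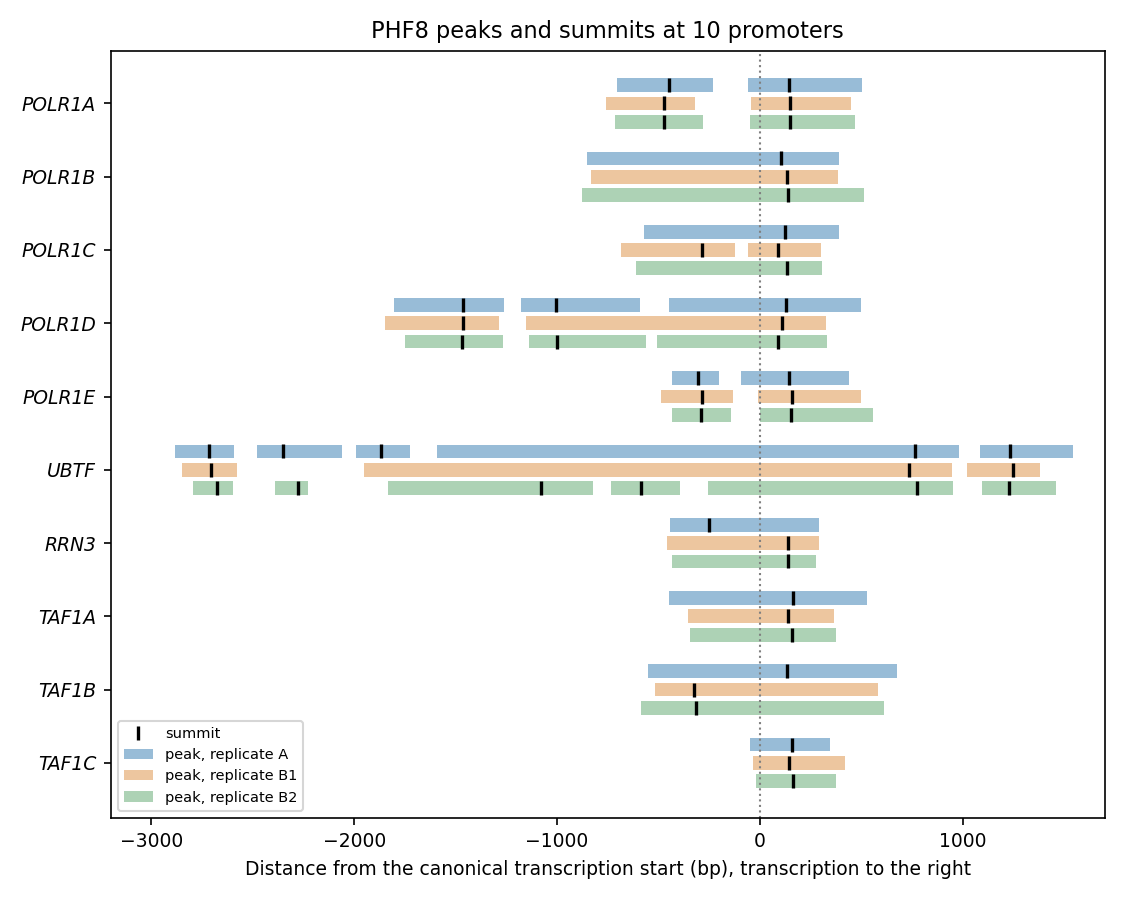
PHF8 peaks (bars) and summits (ticks) at the promoters of the 10 genes in replicates A, B1 and B2, against distance from the canonical transcription start in bp with transcription to the right; the far upstream start of POLR1C, near −6872, is outside the plot. UBTF is covered over 3284 to 4010 bp and TAF1C over 392 to 455 bp, and POLR1A and POLR1E have separate peaks on either side of the start.

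RRN3, the factor that makes the polymerase competent for initiation, was bound as a single peak across the start. RRN3 (ENSG00000085721, chr16:15153890-15188168, minus strand) had a fold enrichment of 29.6, 23.2 and 23.7 in A, B1 and B2 on 88, 67 and 71 fragments. Its percentile was 42.5, 66.1 and 71.9, a mean of 60.2 ± 15.5, again lower in A than in the other replicates. The peaks were alike in extent, at 733, 748 and 708 bp, but the summit lay upstream at −253 in A and downstream at 138 in both B1 and B2. A transcribed processed pseudogene, ENSG00000260735, starts at −139 on the opposite strand, between the start of RRN3 and the summit in A. A nearly identical stretch of 734 bp (96.5% identity) lies at the pseudogene RRN3P1 (chr16:21831455-21832188), where peaks were called in A and B1 with a fold enrichment of 7.40 and 5.46 and none in B2. A shorter copy of 367 bp (95.9% identity) at RRN3P2 had no peak. Reads may be divided between these copies, so the values of RRN3 carry that uncertainty, and no other gene of the 10 had such a copy of its peak in A elsewhere.

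The SL1 subunits TAF1A, TAF1B and TAF1C, which together with TBP recognise the ribosomal DNA promoter, were not bound alike. TAF1A (ENSG00000143498, chr1:222731244-222763275, minus strand) had a fold enrichment of 31.1, 14.4 and 15.2 in A, B1 and B2 on 85, 50 and 55 fragments, with a mean percentile of 38.2 ± 7.55. TAF1B (ENSG00000115750, chr2:9983572-10074545, plus strand), whose product resembles the polymerase II factor TFIIB, reached 39.3, 25.6 and 21.9 on 100, 78 and 69 fragments, with 69.0 ± 5.25. TAF1C (ENSG00000103168, chr16:84211453-84220676, minus strand) reached 41.3, 21.95 and 20.2 on 105, 77 and 73 fragments, with 63.4 ± 6.33. TAF1A ranked below the other two in every replicate, at 46.3, 31.3 and 37.1 against 66.5, 75.0 and 65.5 for TAF1B. Between TAF1B and TAF1C the order changed, with TAF1C higher in A and TAF1B higher in B1 and B2.

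Their peaks differed in width and position. TAF1C had a single peak of 392, 455 and 393 bp, the shortest covered stretch of the 10 genes in each replicate, with its summit 158, 141 and 163 bp downstream of the canonical start. TAF1A was bound over 977, 718 and 719 bp with its summit in an untranslated exon at 163, 138 and 160 bp, and the lncRNA gene TAF1A-AS1 starts beside it on the opposite strand. TAF1B was covered by a single peak of 1231, 1095 and 1198 bp across the start. Its summit lay downstream at 134 in A but upstream at −327 in B1 and −316 in B2, the reverse of the shift at RRN3. At both genes the peak spans either position, so the shift is one of the highest point within a peak of nearly the same extent.

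Ordered by mean percentile, the genes ran POLR1E, TAF1B, POLR1A, POLR1D, TAF1C, RRN3, POLR1C, POLR1B, TAF1A and UBTF, from 72.2 to 31.9. The place of POLR1A rests on its peak over the start of PTCD3. Its peak inside the gene was weaker, at 21.6, 19.4 and 20.8 in A, B1 and B2, and was not ranked. Of the 9 steps between neighbours, 8 were smaller than the SD of the difference over the replicates. The exception was the last, where TAF1A exceeded UBTF by 6.37 ± 5.14 percentile points and did so in 3 of 3 replicates. The largest step, 14.4 ± 22.7 from POLR1B to TAF1A, held its sign in 2 of 3 replicates. Ranked by recovered fragments instead of fold enrichment, the median of the mean percentiles was 61.2 and UBTF was again last, at 26.3 ± 7.24. Polymerase subunits and initiation factors were interleaved in this order.

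The position of the strongest summit was counted from the canonical start and from the nearest of all starts. Counted from the canonical start, the strongest summit was downstream in all 3 replicates in 7 genes (POLR1B, POLR1C, POLR1D, POLR1E, UBTF, TAF1A and TAF1C), beside 61.8% of bound genes. A summit between 50 and 200 bp downstream was present in all replicates in 7 genes (POLR1A, POLR1B, POLR1C, POLR1D, POLR1E, TAF1A and TAF1C), beside 60.3% of bound genes, a window chosen after the values were seen. There were 24 such summits over the replicates, at 87 to 163 bp with a median of 138 bp. They fell in 9 of the genes when a summit in any replicate sufficed. No share of bound genes is given for that looser rule, so the 9 cannot be set beside the 60.3%. Over all bound genes, the strongest summit at any offset, upstream ones included, had a median of 124, 122 and 122 bp in A, B1 and B2. These medians are not measured alike, since the 138 bp covers only summits inside the chosen window. Counted instead from the nearest of all annotated starts, which number 2 to 23 per gene, the strongest summit was downstream in all replicates in 3 genes (POLR1C, UBTF and TAF1C), beside 55% of bound genes. The count thus depends on which start is used.

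**Figure D3:**
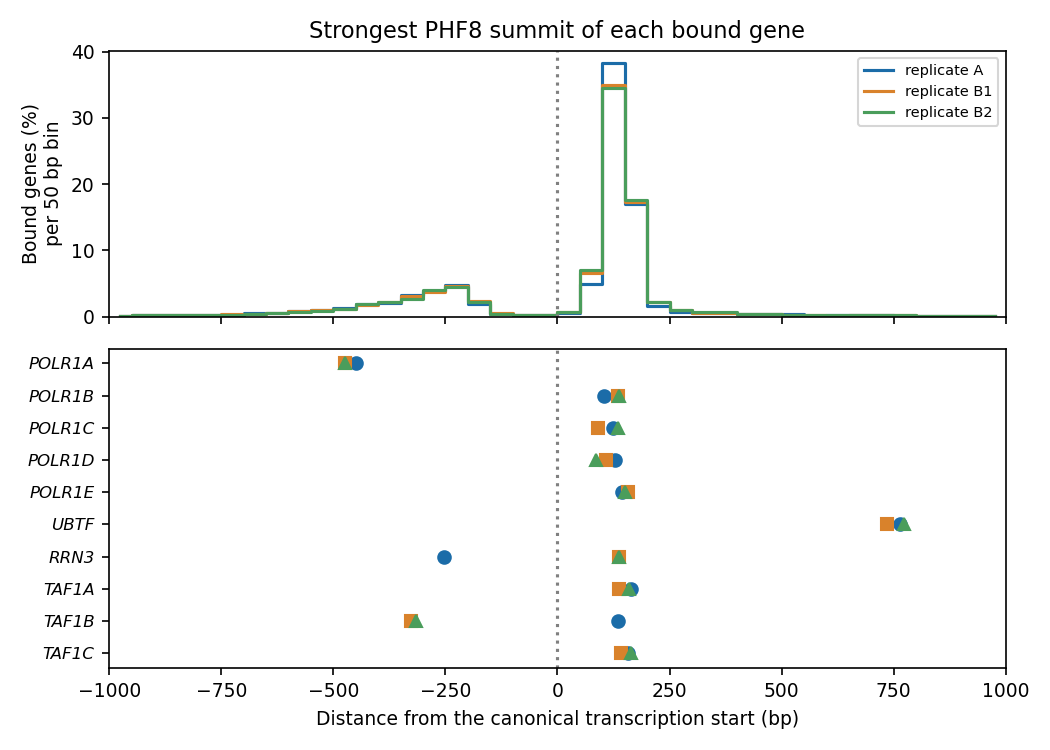
Top, share of bound protein-coding genes (%) per 50 bp bin of the distance from the canonical transcription start (bp) to the strongest PHF8 summit in each replicate; bottom, the same distance for the 10 genes, with circles for A, squares for B1 and triangles for B2. Most summits of the 10 genes lie in the peak of the distribution at about 87 to 163 bp, while POLR1A lies upstream at −450 to −474, UBTF downstream at 734 to 774, and RRN3 and TAF1B change sides between replicates.

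An opposite-strand start of a different gene lies within 2 kb at 6 of the genes. The share of all bound genes with such a start is not given, so this count does not set these genes apart. For POLR1A, POLR1C and POLR1D, with a protein-coding neighbour, the distance of the summit from the neighbour's start was computed, and UBTF, RRN3 and TAF1A, with lncRNA or pseudogene neighbours, were left out of this. The peak at POLR1A lay 101, 125 and 124 bp downstream of the canonical start of PTCD3, which lies at −349 from that of POLR1A. The POLR1D peak over LNX2 lay 100, 100 and 105 bp downstream of the start of LNX2. That at the far start of POLR1C lay 129, 160 and 133 bp downstream of the start of LRRC73. The start of YIPF3 went otherwise. In B1 a separate upstream peak of POLR1C lay 122 bp downstream of it, whereas in A and B2 a single peak spanned both starts with its summit on the POLR1C side, at −287 and −299 from the start of YIPF3. Peaks at a shared promoter cannot be assigned to either gene of the pair.

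Several of the genes had more than a single peak. At least 2 promoter peaks in all replicates were found in 5 genes (POLR1A, POLR1C, POLR1D, POLR1E and UBTF), beside 31.9% of bound genes. Peaks were counted over all annotated starts of a gene, and the comparison was not matched for the number of starts. At POLR1A, POLR1C and POLR1D, a counted peak lies at or near the start of PTCD3, LRRC73 or LNX2. Over the replicates the 10 genes had 56 promoter peaks, 19, 17 and 20 in A, B1 and B2. In the gene bodies, 0 peaks were called outside the start windows of the 10 genes. Of 122 annotated starts, 93 had a peak within the window in all replicates and 29 had none in any. Starts of the same gene can share a peak. No share over all bound genes is given beside the counts for gene bodies and starts, so they do not set these genes apart.

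Other genes of ribosomal RNA synthesis and of the sister polymerases were nearly all bound too. The 10 further polymerase I genes, among them subunits shared with polymerases II and III, were all bound, with a median of the mean percentiles of 62.8 and a range from 30.5 at POLR2K to 85.9 at POLR1F. All 14 regulators of ribosomal DNA, including silencing and chromatin factors, were bound, with a median of 52.7 and a range from 18.3 at KDM2B, a demethylase, to 91.9 at NCL, which encodes nucleolin. In that list PHF8 itself had a fold enrichment of 23.8, 13.0 and 9.86, a percentile of 23.2 ± 6.75, and was the only gene not above 10 in every replicate. The 6 UTP proteins that link transcription to processing of the precursor were all bound, with a median of 60.9, from 41.3 at HEATR1 to 89.2 at UTP4.

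Subunits specific to RNA polymerase II were bound in 6 of 7 genes, with a median of 72.4 and a range from 55.3 at POLR2B to 94.7 at POLR2D. The exception was POLR2J, which had a peak in 0 replicates and has near-identical gene copies, whose part in this was not tested. All 11 subunits specific to RNA polymerase III were bound, with a median of 60.9, from 25.5 at CRCP to 96.2 at POLR3G. All 9 polymerase III factors were bound, with a median of 77.7, from 34.1 at BRF2 to 95.02 at GTF3C5. The 10 polymerase I machinery genes, at 61.8, lay within the 52.7 to 77.7 spanned by the medians of the 6 other lists, and their highest mean, 72.2 at POLR1E, was below the highest of every other list.

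**Figure D4:**
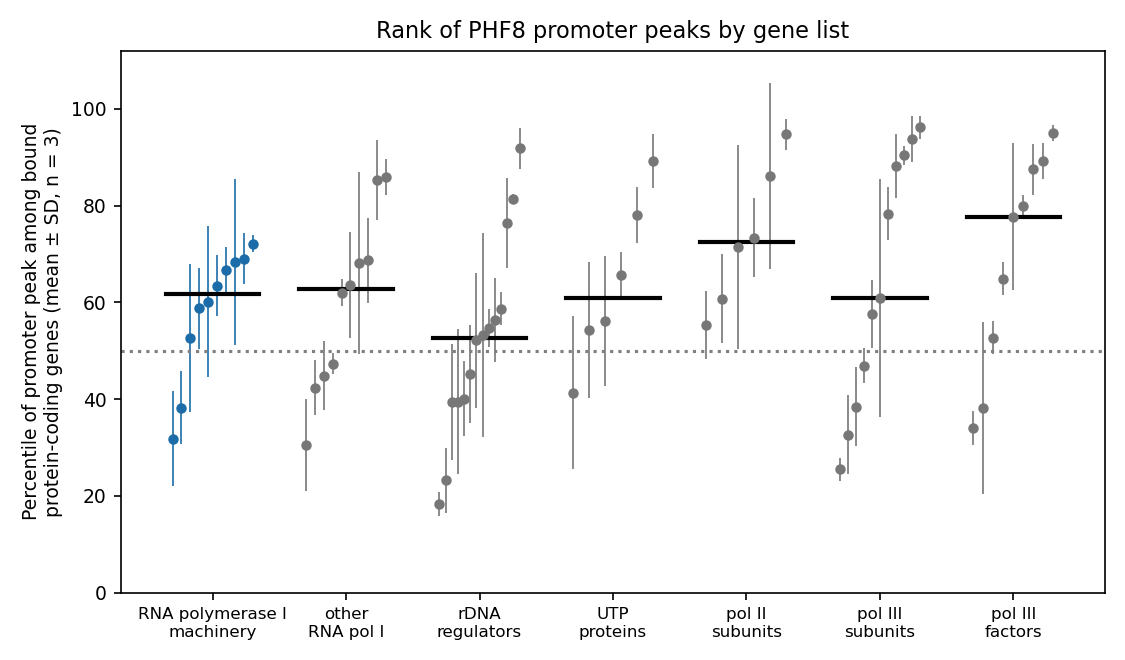
Mean percentile of the strongest promoter peak among bound protein-coding genes for each bound gene of 7 lists (points, with bars for the SD over 3 replicates), with a thick line at each list's median and a dotted line at 50. The RNA polymerase I machinery genes span 31.9 to 72.2 with a median of 61.8, and the medians of the other lists run from 52.7 to 77.7.

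The lists of peaks hold the 24 chromosomes only, and the ribosomal DNA repeats on which this machinery acts were not analysed here. Among rRNA genes annotated on these chromosomes, 1 of 48 had a peak at its start in all replicates, as did 7 of 493 rRNA pseudogenes. The label of the cells could not be checked by expression. Of the melanocyte lineage genes, MITF had promoter peaks of 37.6, 20.4 and 24.6, PAX3 of 40.9, 14.1 and 16.0, and SOX10 of 7.27, 8.18 and 6.90. Of genes of other lineages, ALB and CD3E had no promoter peak, while HBB had peaks of 5.77, 8.37 and 7.03.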

How the data were processed

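PHF8 ChIP-seq peak lists of 3 replicates from SKMEL-147 cells were analysed, and the 2 inputs entered only through the values of each peak. Reads were aligned to hg19 by the authors with Bowtie2 at default settings, and MACS was run in narrow mode for each replicate separately, with fold enrichment taken relative to the inputs. The submitters' processing notes also name Picard and bcl2fastq. The study calls the caller MACS and in a supplement MACS2. Its exact version, the treatment of duplicates and read totals are not given in the sources used here. The deposited lists give fold enrichment, a linear ratio, and −log10 p-values and q-values at the summit. The deposited score follows the q-value and was not used. Every peak met the stated limits of 1.5 for fold enrichment and 0.05 for the q-value, the latter read as an upper limit.

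Starts were the 5′ ends of transcripts in the GRCh37 version of GENCODE release 44, without the mitochondrial genome (221300 pairs of gene and start). The canonical start is that of the transcript marked canonical there. A peak overlapping a window of 1000 bp on either side of a start was a promoter peak. Sequences were read from the GRCh37 genome. A start was called CpG-island-like where the GC share within 250 bp was 0.5 or more and the observed over expected CpG ratio 0.6 or more. Copies of peaks were sought with blastn 2.17.0 (at least 90% identity over 100 bp).

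Fragments at a summit were recovered as the whole number n that, with a background, yields the deposited ratio, (n + 1) over (background + 1), as well as the deposited p-value of a Poisson tail, and were whole for 100% of peaks within 0.001. The steps were tested on simulated data. Intervals (95%, exact Poisson) cover counting error only, since fragments carry no molecular identifiers. Percentiles, SDs and counts were computed in Python 3.11.15 with pandas 2.3.3, scipy 1.17.1 and pysam 0.24.0. With a single condition no test between groups was made, and lists are described by counts and medians. All 10 genes are named with their values. Of the 6 other lists, the highest, the lowest and each unbound gene are named, with PHF8 added after its value was seen, as are genes whose start lies within 1000 bp of a peak. The genes and lists were chosen with earlier results of these data known. Alternatives were other start windows, start sets, overlap rules, cutoffs, list sizes, measures of strength, reference sets and replicate sets, with the canonical start alone added after seeing the data.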

Additional observations from a re-analysis of the deposited data

How the results depend on the processing

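All 10 genes were bound in all replicates under every alternative run except a fold enrichment above 20, which left 7. At that cutoff the number of bound protein-coding genes fell from 12139 to 4789 and the median percentile from 61.8 to 35.6, since only strong peaks remain in the reference. Under the other alternatives the bound genes numbered 10001 to 12369 and the median percentile was 56.3 to 64.0. Leaving out a replicate gave a median of 59.8 to 63.9, 12156 to 12265 bound genes and 3 to 4 genes with a downstream summit. The number of genes with the strongest summit downstream, 3 with the nearest of all starts, was 7 with the 5′ end of the gene record as the only start and 7 with the canonical start only, an alternative added after seeing the data. It was 1 at a fold enrichment above 20, and 1 when the 6 genes with an opposite start within 2 kb were left out, which leaves 4 genes. Ranking by recovered fragments moved 5 of the 10 percentiles by more than their SD, ranking by −log10 q moved 3, a fold enrichment above 10 moved 4, and above 20 moved 7 of the 7 that were left. With the 5′ end of the gene record only, the percentile of POLR1C was 4.41. No paired analysis was possible because the inputs have no peak list of their own and there is a single group. The lists hold only summits of at least 8 fragments in A and B1 and 10 in B2, so weaker binding may be missing from them.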
